A study of Mus musculus with 6 samples.

Results

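Carbonic anhydrases are the enzymes that convert carbon dioxide and water to bicarbonate and a proton and back. The genes described here are 10 members of the mouse family, Car2, Car3, Car4, Car7, Car8, Car10, Car11, Car12, Car13 and Car14, out of 19938 genes measured. They were chosen by name from the array's annotation, with the probe set of the highest mean over the 6 arrays as the value of a gene. A probe set is the group of probes that reads 1 gene. Each of the 10 has a single one, so that no measured value in fact decided between probe sets. The annotation names 16 genes of the family, and the 6 that are not members, Car1, Car5a, Car5b, Car6, Car9 and Car15, are given beside them.

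The samples are 6 neocortices, the part of the forebrain that becomes most of the cerebral cortex, from mouse embryos at embryonic day 14.5. The 3 controls were Bcl11a+/+ and the 3 mutants were Bcl11aΔflox/Δflox, so both copies of the gene carried the deleted form of a floxed allele. Bcl11a encodes a zinc finger transcription factor. The Cre line, the cells in which it acts and the strain are not named in the sources used here. RNA of each embryo was hybridised to its own array, and the values are log2 expression after RMA, the authors' normalization. Nothing else in the labels sets the groups apart. Read from Xist and Y-linked transcripts, the controls held 2 females and the mutants 1. The cortical transcription factor gene Emx1 lay between 9.85 and 10.01 over all 6 arrays, and the mean of 6 neocortex marker genes lay between 11.58 and 11.67 in controls and between 11.61 and 11.71 in mutants. The targeted gene Bcl11a (Entrez 14025) was at 12.20, 12.30 and 12.26 in the controls and at 11.41, 11.49 and 11.34 in the mutants. The position of the Bcl11a probes was not analysed here, and any that lie outside the deleted part check nothing. Pairs of arrays correlated at 0.995 to 0.998 over genes.

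Family members differ in where they work. Car2, Car3, Car7 and Car13 are cytosolic, Car5a and Car5b mitochondrial, Car4 and Car15 tethered to the outer cell surface by a lipid anchor, and Car9, Car12 and Car14 span the membrane with the enzyme outside. Car8, Car10 and Car11 are the carbonic anhydrase related proteins, which lack zinc-binding histidines of the active site and do not catalyse the reaction. In the brain the enzymes buffer pH, and they supply bicarbonate to anion exchangers in red blood cells and to fluid secretion in the choroid plexus.

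Of the members, 6 (Car4, Car7, Car10, Car11, Car12 and Car14) have promoter windows in the RefSeq table used here, with 10 windows in all. Windows of 3 of the members with lower mutant values are shown, as the bases 250 to 1 before an annotated start on build GRCm38.p6. All 3 lie inside the annotated extent of their gene, which has other starts, and whether they fall in exons or introns of longer transcripts was not analysed here. Capitals mark TGACCA, the motif known for Bcl11a, and ACGTG, the core of hypoxia response elements, each on either strand.
Car12, chr9:66713436-66713685, plus strand: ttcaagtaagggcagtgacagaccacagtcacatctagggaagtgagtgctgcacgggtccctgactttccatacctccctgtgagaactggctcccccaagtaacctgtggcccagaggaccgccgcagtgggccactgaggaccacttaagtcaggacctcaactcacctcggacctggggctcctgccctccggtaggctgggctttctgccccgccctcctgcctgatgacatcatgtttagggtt
Car14, chr3:95904686-95904935, minus strand: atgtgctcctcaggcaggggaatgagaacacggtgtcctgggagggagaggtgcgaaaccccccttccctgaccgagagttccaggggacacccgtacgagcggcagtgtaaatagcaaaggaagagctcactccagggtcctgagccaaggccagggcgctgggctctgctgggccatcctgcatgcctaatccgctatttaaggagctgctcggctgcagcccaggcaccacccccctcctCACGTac
Car11, chr7:45699554-45699803, plus strand: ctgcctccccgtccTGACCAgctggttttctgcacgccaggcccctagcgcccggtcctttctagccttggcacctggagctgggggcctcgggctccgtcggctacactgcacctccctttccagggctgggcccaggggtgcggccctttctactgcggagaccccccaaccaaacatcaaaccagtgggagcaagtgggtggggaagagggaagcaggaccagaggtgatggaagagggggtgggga
The Car12 window holds neither motif, the Car14 window holds the hypoxia core once, and the Car11 window shown holds the Bcl11a motif once. Car11 has a second window, which holds neither. Among the 10 member windows, 1 held TGACCA and 2 held ACGTG. The ACGTG windows were that of Car14 and a window of Car10. Car4 and Car10 had lower mutant values too, and their windows are not shown. Of 32851 RefSeq windows of the same length, 11.4% held TGACCA and 16.6% held ACGTG. These motifs were chosen after the values were known, and a match is only a match of letters.

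Comparing mutants with controls asks which genes depend on Bcl11a in the neocortex. Car12, a transmembrane enzyme, was the 1 member that passed the threshold of a limma adjusted p under 0.05 over all genes, and it fell in the mutants. Over all 19938 genes 0.286% passed, and 0.0401% passed as lower. Car2, the fast cytosolic enzyme of red blood cells and glia, had the largest difference of any member, 1.24 on the log2 scale, but did not pass. Control and mutant values did not overlap for 5 of the 10 members, Car2 with higher values in the mutants and Car10, Car11, Car12 and Car14 with lower ones. Over all genes 10.5% did not overlap, 7.69% with higher and 2.85% with lower mutant values. With a further quantile normalization of these gene values, Car10 overlapped and the count was 4, where 11.6% of all genes did not overlap. The family list was drawn up with results of these arrays known, so none of these counts is independent evidence about the family. In whole tissue, fewer cells of a type and less RNA per cell cannot be told apart.

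**Figure D1:**
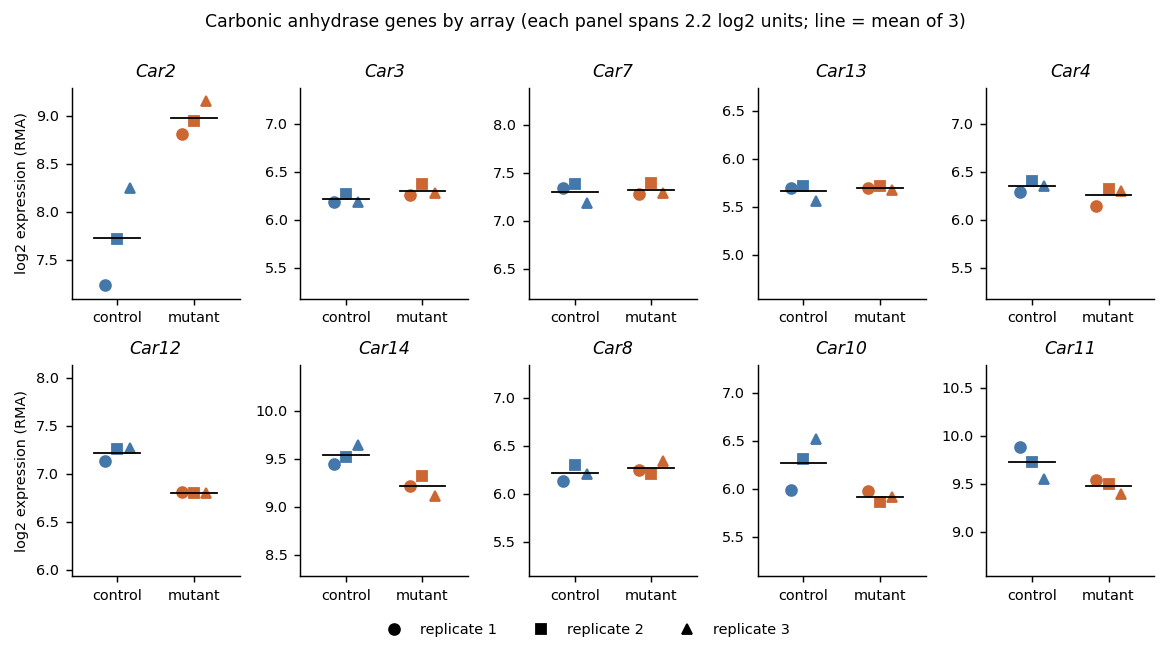
Log2 expression of the 10 members on each array, with 3 controls in blue and 3 mutants in orange, marker shapes for replicate numbers and a line at each group's mean; every panel spans the same number of log2 units. Car2 is higher on all 3 mutant arrays, Car12 and Car14 are lower on all 3, and the points of Car3, Car4, Car7, Car8 and Car13 overlap.

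Among the cytosolic enzymes, Car2 stood at 7.23, 7.71 and 8.25 in the controls and at 8.81, 8.95 and 9.15 in the mutants. The groups were separated by 0.57, while the controls alone spanned 1.02 and the mutants 0.34. The mutant mean was 8.97 ± 0.17 against 7.73 ± 0.51 (SD, n = 3 arrays each), a difference of 1.24 ± 0.22 (SE) or 2.37-fold, with limma's adjusted p at 0.0773. Leaving out control replicate 3, the highest control, gave a difference of 1.501 and a limma adjusted p of 0.0108. Car2 passed in 5 of the 16 alternative settings, that one among them, with array weights at the lowest limma adjusted p (0.00357) and the highest at 0.278. Another of the 5 is the reported fit read at an adjusted p under 0.1.

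The differences of the genes beside Car2 were small, and none passed. In gene order along the chromosome, Car13, Car1, Car3 and Car2 follow each other with no other tested gene between them. Car3, a slow enzyme abundant in muscle and fat and the direct neighbour of Car2, was at 6.18, 6.27 and 6.18 in controls and 6.25, 6.37 and 6.28 in mutants. These ranges overlapped, and the difference was 0.09 (95% interval of the limma fit from -0.05 to 0.23). Car13, another cytosolic enzyme, was at 5.70, 5.72 and 5.57 in controls and 5.70, 5.72 and 5.68 in mutants, with a difference of 0.04 (-0.11 to 0.18). Car1, the abundant isozyme of mature red cells and no member of the list, was at 6.35, 5.97 and 5.81 in controls and 5.9999, 6.01 and 6.04 in mutants. Its difference was -0.02 (-0.30 to 0.25), and it was 0.13 without control replicate 1. Car7, a cytosolic enzyme of neurons that shapes their bicarbonate supply, was at 7.34, 7.38 and 7.18 in controls and 7.27, 7.39 and 7.29 in mutants. Its difference was 0.02 (-0.15 to 0.19), and the sign turned with quantile normalization (-0.025) and median centring (-0.018).

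Genes of red blood cells were read on the same arrays. Of the 16 measured genes among 19 listed as erythroid markers, 6 rose, none fell and 10 had non-overlapping groups, all higher in the mutants. Over all genes 0.246% rose, and 7.69% had non-overlapping groups with higher mutant values. Slc4a1, the red cell exchanger that carries the bicarbonate made by carbonic anhydrase out of the cell, was at 7.88, 7.96 and 8.16 in controls and 9.53, 9.37 and 9.50 in mutants. It rose by 1.47 ± 0.09 (SE, n = 3 arrays each, limma adjusted p = 0.000640). Hbb-bh1, an embryonic globin gene, rose by 5.02, Hba-x by 1.38, Kel by 0.66, Rhag by 0.62 and Epb42 by 0.55. Epb42 passed in 5 of 15 alternative settings and in none of the 6 fits without 1 array (limma adjusted p up to 0.212). Rhag passed in 12 of 15, and its call was lost with the sex covariate and without mutant replicate 2 or 3 (up to 0.0864). Alas2, the first enzyme of heme synthesis in red cells, and Trim10 differed by 0.71 and 0.65 without passing (limma adjusted p = 0.0795 and 0.0585).

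The mean of the 16 erythroid genes lay between 7.12 and 7.21 in controls and between 7.88 and 7.99 in mutants. Hbb-bh1, with its difference of 5.02, weighs heavily in this mean, and the median difference of the 16 genes was 0.57. The 16 genes differed among themselves, and Car1, Aqp1 and Sptb had differences of -0.02, -0.01 and 0.003. The erythroid transcription factor genes Gata1 and Klf1 lay between 6.18 and 6.32 and between 6.58 and 6.67 in controls, and between 6.19 and 6.29 and between 6.64 and 6.85 in mutants. For the embryonic globins as for the other genes, more red cells and more RNA of the gene per cell cannot be told apart here. The part of red cells in the difference of Car2 was not tested. The mean of 12 pericyte and meninges genes was 8.28, 7.33 and 7.28 on mutant replicates 1, 2 and 3, against at most 7.18 on the controls. Of these genes 11 had positive differences, against 60.3% of all genes. In 4 the groups did not overlap, all higher in the mutants, against 7.69% of all genes, and none of the 12 passed. Dcn, a matrix proteoglycan gene of such cells, was at 6.62, 6.58 and 6.62 in controls and 10.49, 8.32 and 7.27 in mutants. Microglia and macrophage genes had higher values in the mutants as well, with means of 9 genes from 7.09 to 7.29 in controls and from 7.37 to 7.52 in mutants. All 9 had positive differences, against 60.3% of all genes. In 5 the groups did not overlap, all higher in the mutants, against 7.69% of all genes, and none passed. Fcrls, a microglial receptor-like gene, differed by 0.45. The means of 5 oligodendrocyte lineage genes and of 8 ganglionic eminence genes overlapped between the groups, and none of these genes passed. The part of these cells in the results was not tested. Without mutant replicate 1 the difference of Car2 was 1.32, with a limma adjusted p of 0.254.

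**Figure D2:**
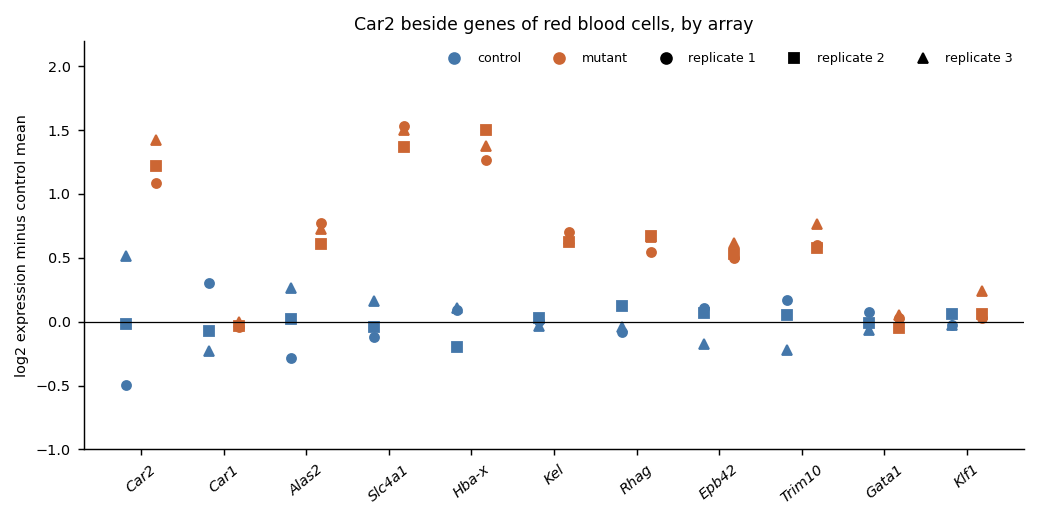
Log2 expression of Car2, Car1 and 9 further erythroid genes on each array, relative to the mean of the 3 controls. Controls are blue, mutants are orange, and marker shapes stand for replicate numbers. Hbb-bh1, with its difference of 5.02, is not drawn, nor are Hbb-y, Tspan33, Ermap, Sptb and Aqp1 of the same list. Of the genes not drawn, Hbb-bh1, Hbb-y and Tspan33 are above all controls on every mutant array, while Ermap, Sptb and Aqp1 overlap. Car2, Alas2, Slc4a1, Hba-x, Kel, Rhag, Epb42 and Trim10 are above all controls on every mutant array, while Car1, Gata1 and Klf1 overlap.

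Both transmembrane members had lower mutant values. Car12 was at 7.13, 7.26 and 7.27 in controls and at 6.81, 6.80 and 6.80 in mutants. The mutant arrays agreed closely with each other and all lay below the lowest control, by 0.32. Car12 fell from 7.22 ± 0.08 to 6.80 ± 0.0087 (SD, n = 3 arrays each), by 0.42 ± 0.06 (SE) on the log2 scale or 1.34-fold, with limma's adjusted p at 0.0393. Its difference was negative in all 16 alternative settings, from -0.46 to -0.39, but the call did not hold. Many of these settings could not turn the sign. Those that alter only the test, the filter or the probe sets left the difference at -0.42, as Car12 has a single probe set. Leaving out 1 array cannot turn the sign where the groups do not overlap. Car12 passed in 7 of the 16, with array weights at the lowest limma adjusted p (0.00394). Among the 7 is the reported fit read at an adjusted p under 0.1. The fits without the dimmest genes and with other probe set choices are among them too, and there the values of Car12 are unchanged. The limma adjusted p was 0.149 with the embryos' sex as a covariate, 0.0506 with quantile normalization and 0.0728 with a prior variance that follows the level. Of the 6 fits without 1 array, Car12 passed in the fit without control replicate 1 (limma adjusted p = 0.0418) and in none of the others. Without control replicate 2 or 3 the limma adjusted p was 0.200 and 0.0958, and without mutant replicate 1, 2 or 3 it was 0.169, 0.187 and 0.183.

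Car14, a close relative of Car12 that is found on neurons and glia, was at 9.45, 9.52 and 9.65 in controls and at 9.22, 9.32 and 9.11 in mutants. All mutants were below all controls, by 0.13 at the nearest. Its difference was -0.32 ± 0.08 (SE, n = 3 arrays each), 1.25-fold, and did not pass (limma adjusted p = 0.2499, range 0.1099 to 0.665 over the alternatives). Car4, the lipid-anchored enzyme of brain capillaries and other vessels, was at 6.29, 6.41 and 6.35 in controls and 6.15, 6.32 and 6.30 in mutants. The groups overlapped, and the difference was -0.09 (95% interval from -0.25 to 0.06). The mean of 11 endothelial genes overlapped too, from 8.18 to 8.39 in controls and from 8.24 to 8.57 in mutants, and none passed. Tek, an angiopoietin receptor gene, differed by 0.32, and Mfsd2a, a lipid transporter gene of brain vessels, by -0.33.

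Car2, Car12 and Car14 are also enzymes of the choroid plexus, a tissue that can be taken along with cortex. Of 12 measured choroid plexus markers, none passed in either direction, and the median difference was 0.03. Ttr, a defining gene of that tissue, was at 5.50, 5.39 and 5.27 in controls and 5.29, 5.29 and 5.38 in mutants. The mean of the 12 genes lay between 5.74 and 5.98 in controls and between 5.88 and 5.92 in mutants, within the control range. Kcnj13 and Folr1, an epithelial potassium channel gene and a folate receptor gene, differed by 0.14 and 0.10.

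**Figure D3:**
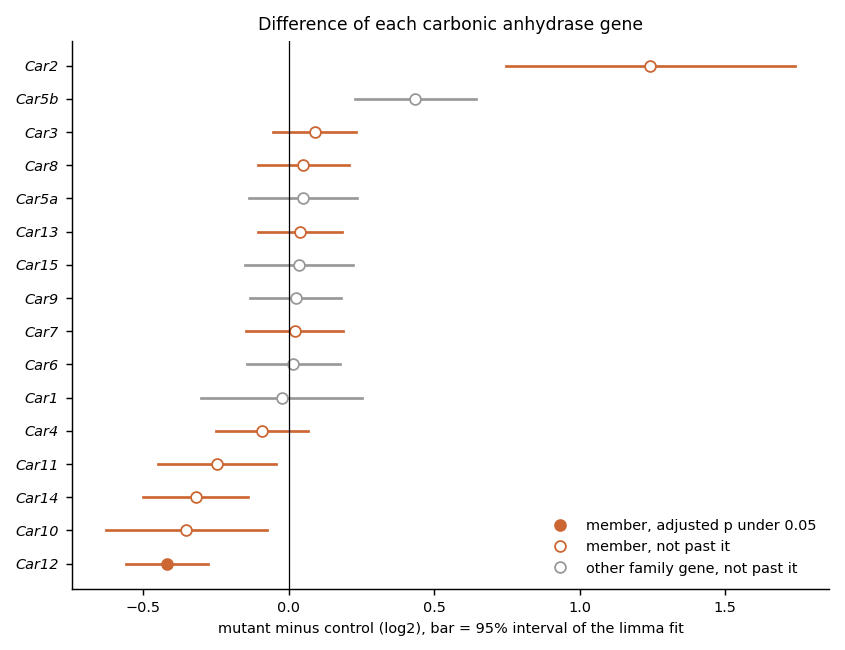
Mutant minus control difference in log2 units for the 16 family genes, in order of the difference, with 95% intervals of the limma fit that are not adjusted for the number of genes. Members are orange and other family genes grey; Car12, the 1 filled point, passed the threshold at -0.42, and Car2 at 1.24 has the widest interval.

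None of the 3 related proteins without enzyme activity passed. Car11, a secreted protein of neurons, was at 9.88, 9.73 and 9.55 in controls and 9.54, 9.50 and 9.39 in mutants. The nearest control and mutant were 0.014 apart, so the groups only just failed to overlap. Its difference was -0.25 ± 0.09 (SE, n = 3 arrays each) and did not pass (limma adjusted p = 0.626). Car10, a secreted ligand of neurexins, was at 5.98, 6.31 and 6.51 in controls and 5.98, 5.86 and 5.91 in mutants. Its lowest control exceeded its highest mutant by 0.00205. Its difference was -0.35 ± 0.12 (SE, n = 3 arrays each) and did not pass (limma adjusted p = 0.568, range 0.0656 to 0.946 over the alternatives). Car8, which binds the IP3 receptor Itpr1 and is needed in cerebellar Purkinje cells, was at 6.13, 6.30 and 6.21 in controls and 6.24, 6.20 and 6.34 in mutants. Its values overlapped, with a difference of 0.05 (95% interval from -0.11 to 0.21) that turned to -0.02 with array weights. Car4 and Car10 lie on the chromosome of Bcl11a, with 767 and 834 tested genes between them and it.

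For Car2, Car10, Car11, Car12 and Car14, the members whose groups did not overlap, the exact two-sided permutation p of the difference was 0.1, which 3 arrays against 3 cannot go below. For the other 5 members it lay at 0.2 or above. The intervals of Car3, Car4, Car7, Car8 and Car13 together ran from -0.25 to 0.23. The median difference of the 10 members was -0.04, against 0.02 over all genes, and 5 members had positive differences, against 60.3% of all genes.

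Of the 6 family genes outside the list, none passed. Car5b, a mitochondrial enzyme, was at 5.91, 5.94 and 6.14 in controls and 6.57, 6.43 and 6.29 in mutants. All mutants were above all controls, and the difference of 0.44 ± 0.09 (SE, n = 3 arrays each) had a limma adjusted p of 0.162 and of 0.0164 with array weights. Its sister gene Car5a differed by 0.05 (95% interval from -0.14 to 0.23) with overlapping values. Car9, the family member best known as a hypoxia target, was at 5.54, 5.36 and 5.35 in controls and 5.46, 5.43 and 5.44 in mutants, a difference of 0.02 (-0.13 to 0.18). Car15 and the salivary enzyme Car6 differed by 0.03 and 0.02. The differences of Car6, Car9 and Car15 turned sign under some settings.

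The transporters that work with carbonic anhydrases were compared in the same fit. Of 14 measured bicarbonate transporters, Slc4a1 rose, which also belongs to the erythroid list, and none fell. Over all genes 0.246% rose. The median difference was 0.02, the same as over all genes. Slc26a7, a chloride and bicarbonate exchanger, differed by -0.33, Slc4a11 by -0.18 and Slc4a10, a sodium-coupled transporter of neurons, by 0.14, and these did not pass. Of 18 measured proton, lactate and chloride transporters none passed. Positive differences were found in 11, near the share of 60.3% over all genes, and the median was 0.04. Slc16a1 and Slc16a3 are lactate transporters that carbonic anhydrases can assist. Slc16a1 was at 10.11, 10.21 and 10.41 in controls and 10.04, 9.94 and 9.97 in mutants, and Slc16a3 at 8.39, 8.41 and 8.42 in controls and 8.80, 8.54 and 8.68 in mutants. Their groups did not overlap, with differences of -0.26 and 0.27 and limma adjusted p of 0.482 and 0.364. The endosomal sodium and proton exchanger Slc9a9 differed by 0.28.

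Of 7 measured binding partners of the related proteins none passed. All 7 had positive differences, against 60.3% of all genes, and the median was 0.10. The neurexin genes Nrxn3 and Nrxn2 differed by 0.21 and 0.15, and the neuroligin gene Nlgn1, whose protein binds neurexins, by 0.15. Of 19 hypoxia targets, Egln3, a prolyl hydroxylase gene, rose by 0.95, with limma's adjusted p at 0.0136. No target fell, and the list median was 0.01, while 0.246% of all genes rose. Egln3 passed in 10 of the 16 alternative settings. The losses included the sex covariate and the fits without control replicate 2 or a single mutant array (limma adjusted p up to 0.0952). Bnip3, P4ha1 and Pdk1, further targets of hypoxia-inducible factors, differed by 0.20, 0.16 and -0.15.

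**Figure D4:**
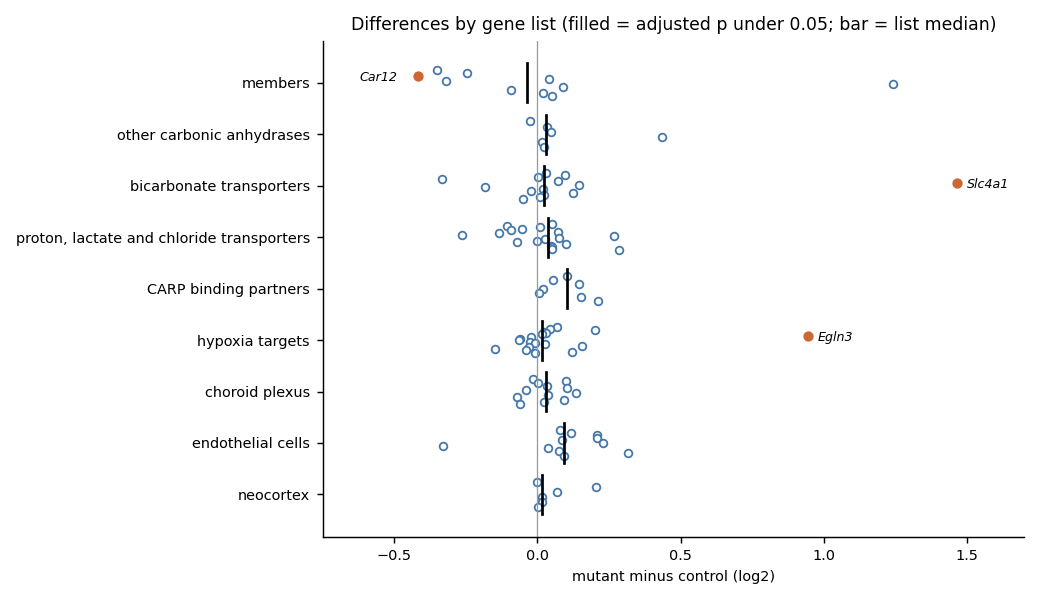
Mutant minus control difference in log2 units of each measured gene in 9 lists, with a bar at the list median; CARP stands for carbonic anhydrase related protein. Filled points passed the threshold, which were Car12, Slc4a1 and Egln3, and the medians of the lists drawn lie between -0.04 and 0.10. Lists not drawn include the erythroid, pericyte and meninges, and microglia and macrophage genes, with medians of 0.57, 0.32 and 0.22, and those of the oligodendrocyte lineage and the ganglionic eminence.

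The genes whose pattern over the 6 arrays came nearest to those of Car2 and Car12 were found by the root mean square difference of log2 values, after each gene's mean was subtracted. Nearest to Car2 were Sema3c (0.198), Tent5c (0.212), Gamt (0.213), Tac2 (0.234) and Egln3 (0.264). Sema3c, the secreted semaphorin named in the study's title, was at 8.85, 9.13 and 9.21 in controls and 10.22, 10.34 and 10.43 in mutants, and rose by 1.27 (limma adjusted p = 0.00201). None of these 5 is in the erythroid list, but the cut at 5 is arbitrary, and Slc4a1 of that list was nearly as near as Egln3. The absence of that list from the 5 therefore says nothing about red cells. Nearest to Car12 were Shc3 (0.0523), Kcnh3 (0.0563), Nptx1 (0.0582), Tmtc1 (0.0603) and Foxred2 (0.0689). Shc3, an adaptor of growth factor receptors in neurons, was at 10.75, 10.78 and 10.73 in controls and 10.41, 10.37 and 10.33 in mutants. It fell by 0.38 (limma adjusted p = 0.0393) but passed in none of the 6 fits without 1 array, where the limma adjusted p reached 0.2001. The other 4 differed by -0.40 to -0.30 and did not pass.

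**Figure D5:**
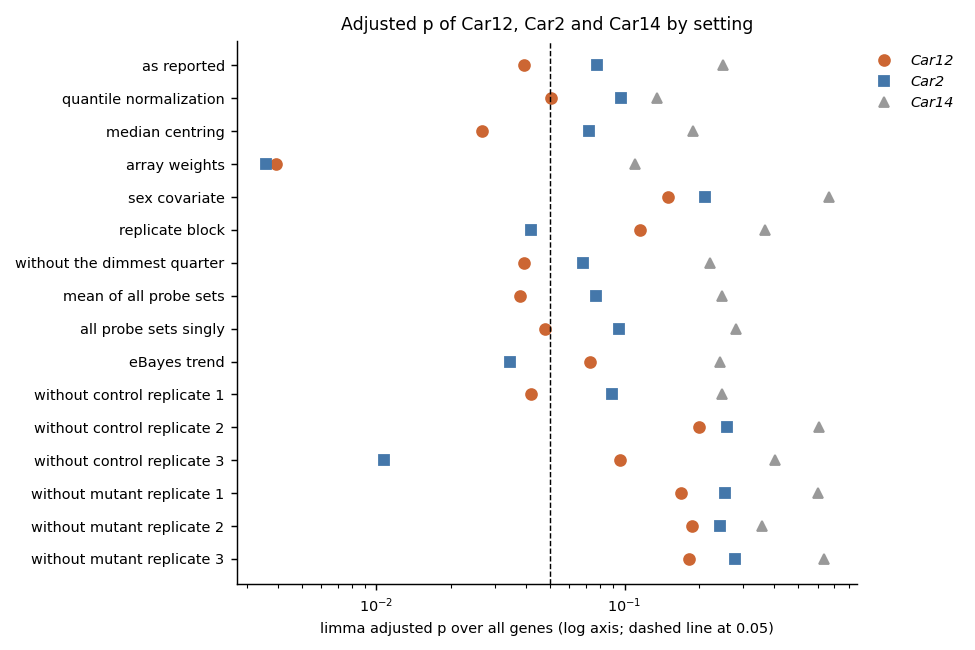
Limma adjusted p over all genes, on a log axis, for Car12, Car2 and Car14 in the reported fit and under 15 other settings, with a dashed line at the threshold of 0.05. Car12 lies between 0.00394 and 0.200, with 0.0393 in the reported fit, Car2 lies between 0.00357 and 0.278, and Car14 is right of the line in every fit.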

How the data were processed

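Neocortex RNA of 6 embryos was measured on Affymetrix Mouse Gene ST arrays. The deposited log2 values were made by the authors with Affymetrix Expression Console and RMA (background correction, quantile normalization, summary per probe set), per the submitters' processing notes; the log2 scale was read from the value range. Software versions and the array's genome build are not named in the sources used here. RMA compresses dim genes, gives no detection call, and does not allow levels of different probe sets to be compared.

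Probe sets with 1 symbol in GEO's platform annotation (21789 of 35556) were used, the brightest per gene, for 19938 genes; 21698 matched a RefSeq gene by Entrez number. Mutants and controls were compared in limma 3.58.1 under R 4.3.3 (lmFit, eBayes, two-sided, Benjamini-Hochberg over all genes), which was tested on simulated data. The 3 arrays of a group come from separate embryos, per the labels' series text.

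The members and gene lists were chosen with earlier results of these data known. Named are all family genes, Bcl11a, Sema3c, listed genes past the threshold, up to 3 others per list with the largest differences, defining markers, and the 5 genes nearest in pattern to Car2 and Car12. Other normalizations, array weights, sex as a covariate, filters, probe set choices and fits without each array were tried. The setting called quantile normalization repeats that step of RMA on the values of the chosen genes. A further setting was the reported fit read at an adjusted p under 0.1, which every gene past 0.05 passes. Protein sequences were not used here.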

Additional observations from a re-analysis of the deposited data

How the results depend on the processing

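The number of genes past the threshold was 57. It was 217 with array weights, 24 with the sex covariate, 107 at an adjusted p under 0.1, 34 with the replicate block (replicate number as a factor in the fit), and 20 to 50 when 1 array was left out. The arrays whose loss moved it most were control replicate 2 (20), mutant replicate 2 (20), mutant replicate 1 (25) and mutant replicate 3 (33). Residuals around the group means correlated at 0.03, -0.14 and 0.08 between embryos of the same number, and 1 number of 3 was its own best partner, so the numbers were not taken to pair the embryos. The number of members past the threshold, 1, was 0 with quantile normalization and with the sex covariate, 2 (Car2 and Car12) with array weights and at an adjusted p under 0.1, and 0 to 1 when 1 array was left out. It was also 1 with the replicate block, with the variance trend and without control replicate 3, but there the gene was Car2 (limma adjusted p = 0.0420, 0.0346 and 0.0108) and Car12 did not pass (0.116, 0.0728 and 0.0958). Egln3 and Epb42 did not pass with the replicate block either (0.0849 and 0.142). Among the genes refitted under each setting, which leave out markers given by their levels alone, signs turned for 7 family genes that did not pass and for no other. With quantile normalization Car7 was at -0.025, Car6 at -0.00025 and Car15 at -0.0044, and with median centring these were at -0.018, -0.022 and -0.0038 and Car9 at -0.015. With array weights Car7 was at -0.0038, Car6 and Car8 at -0.018 and -0.020 and Car1 at 0.014, and with the sex covariate Car6 was at -0.0017. When 1 array was left out, Car1 ranged from -0.14 to 0.13, Car6 from -0.049 to 0.051, Car7 from -0.040 to 0.060, Car9 from -0.010 to 0.084, Car13 from -0.0083 to 0.069 and Car15 from -0.037 to 0.10. Over these genes and settings, 759 results kept their direction and their side of the threshold, 36 lost a call and 26 gained one. Part of the kept directions was fixed, as settings that alter only the test, the filter or the probe sets can leave a difference unchanged. The cause of these changes was not tested. The number of arrays limits the precision, and no setting moved the median of all genes by more than 0.04.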
